A study of Homo sapiens with 4 samples.

Results

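Heat shock and unfolded protein response genes were followed in RNA recovered on streptavidin beads from DU-145, an established human prostate cancer line. The members are 31 genes chosen by symbol from a list of chaperones, endoplasmic reticulum (ER) folding and degradation factors, and ATF4 with genes that it activates. They were taken from 25679 genes obtained by summing the FPKM (fragments per kilobase of transcript, scaled to the number of mapped fragments) of each gene's transcripts, and 28 of the 31 were among the 9940 genes that reached 1 FPKM in 2 or more libraries. In the biotin group, 2 libraries came from cells transfected with 60 nM of miR-26a duplexes tagged with biotin at the 3′ end, a mixture of a form with thiouridine in place 7 and a form with it in place 17. In the control group, 2 libraries came from cells given 60 nM of untagged miR-26a duplex. All cells were transfected 24 h after seeding and irradiated at 365 nm with 2 J/cm2, and the RNA was held with the beads for 4 h. The control libraries thus measured RNA held by the beads in the absence of a tag, in cells that had also received miR-26a. The tag and the thiouridine always went together, so their effects cannot be told apart. RNA from before the pull-out was not analysed here, so capture on the beads and abundance in the cells cannot be told apart, nor can fewer cells and less RNA per cell.

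The libraries held an estimated 17560000 and 23640000 mapped reads in the biotin group and 16030000 and 17840000 in the control group. All 8 markers set for the line, KRT8 and EPCAM among them, were at 1 FPKM or more in every library. Of the markers of other cell types, all 3 of fibroblasts, 2 of endothelium and 2 of neuroendocrine cells stayed below 1 FPKM in every library, as did 2 of 3 of blood cells and 3 of 4 of luminal prostate cells. The sums of these lists ran from 0.00874 to 1.34 FPKM in the biotin libraries and from 0 to 1.79 FPKM in the controls. Among the 9940 tested genes, 1307 stood higher and 928 stood lower with biotin (limma, two-sided, Benjamini-Hochberg adjusted p below 0.05), so that 58.5% of the calls were increases. Upper-quartile scaling called 1228 increases and 1385 decreases, or 47.0% increases. With 2 libraries against 2, the smallest p of an exact permutation test is 0.333, and every call rests on the spread that limma pools over genes.

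Cells meet unfolded protein with separate programmes for separate compartments. In the cytosol, heat shock factor drives the genes of chaperones that bind and refold proteins. In the ER, the sensors IRE1, PERK and ATF6 answer by splicing XBP1 mRNA, by raising ATF4 translation and by releasing a fragment of ATF6 that enters the nucleus, and together these raise chaperones, degradation factors and enzymes of amino acid supply. A microRNA binds mRNAs mainly through its seed, nucleotides 2 to 8, and sites for the seed in 3′ UTRs are the usual places of repression.

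The tagged RNA is shown with its seed in capitals, since all site searches below use that stretch; the sequence is RefSeq's mature hsa-miR-26a-5p, which is the same at MIR26A1 on chromosome 3 and MIR26A2 on chromosome 12. Nucleotides 7 and 17, the places of the thiouridine, are both U.
hsa-miR-26a-5p: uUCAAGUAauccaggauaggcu

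The complement of the seed, TACTTGA, was found in the 3′ UTR of 4 of the 28 tested members (14.3%), against 1110 of 9466 tested protein-coding genes (11.7%). Median 3′ UTR length was 796.5 nt in the members and 950 nt in all these genes. CHAC1, HSPA8 and PDIA6 had a single site each, and the fourth gene was SLC7A11. The windows below are written 5′ to 3′ on the mRNA strand, from GENCODE 29 transcripts, with the 7 bases of the site in capitals; an a after the capitals extends the match by the base that faces nucleotide 1 of the miRNA.
CHAC1: actgacttacTACTTGAaactttattt
HSPA8: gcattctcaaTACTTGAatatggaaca
PDIA6: caagaagtagTACTTGAttggtcattt
SLC7A11 site at 4141 nt after the stop codon: cattttatttTACTTGAatatattctt
SLC7A11 site at 5243 nt: tgtttcagcgTACTTGAatcaagtgta
In hg38 the sites shown were at chr15:40955958-40955964 for CHAC1 on the plus strand. The others lay on the minus strand, at chr11:123057601-123057607 for HSPA8, chr2:10784130-10784136 for PDIA6, and chr4:138167809-138167815 and chr4:138166707-138166713 for SLC7A11. The CHAC1 transcript was matched by gene symbol, because the deposited accession had no link in that release. DNAJB1 had the 7 bases in its coding sequence. As given below, of these 4 members CHAC1 was higher in the biotin group, HSPA8 was lower, and PDIA6 and SLC7A11 did not pass the test. Of the 1110 tested protein-coding genes with a site, 161 were higher and 65 lower. Of all 9940 tested genes, 1307 were higher (13.1%) and 928 lower (9.34%). Whether a site goes with a call was not tested. The site of HSPA8 has the same following a as that of CHAC1.

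Of the 28 tested members, 2 were higher in the biotin group (7.14%, against 13.1% of all tested genes) and 5 were lower (17.9%, against 9.34%). In either direction 7 of the 28 members were called, a share close to the 22.5% of all tested genes. The median log2 fold change on the log2(FPKM + 1) scale was -0.31 in the members and -0.06 over all tested genes. Both biotin libraries lay above both controls in 4 members (14.3%, against 29.4% of tested genes) and below both in 15 (53.6%, against 37.7%). Cytosolic chaperones had a median of -0.44 over 7 tested genes, ER chaperones -0.34 over 9 and ATF4 with its targets -0.15 over 6. Set beside each other, 3 cytosolic chaperones (42.9%) and 1 ER chaperone (11.1%) were lower and none was higher. The ATF4 group had 1 gene higher and 1 lower (16.7% each). Of all tested genes 13.1% were higher and 9.34% lower. With 7, 9 and 6 tested genes, the cytosolic, ER and ATF4 groups each differed from these shares by few genes. All 5 decreases lost their call when each gene was taken as its highest transcript in place of the sum, with HSPA8 at an adjusted p of 0.0542 and HSP90AA1 at 0.0519 (limma). The log2 fold changes of HSPA8, HSP90AA1, HSP90AB1 and DNAJB9 were the same in that fit, since each has a single transcript above 0, and that of ASNS was -0.65. Summed over the 9 cytosolic members, FPKM was 208.7 and 176.4 in the biotin libraries and 248.2 and 282.2 in the controls. The 9 ER chaperones summed to 166.6 and 174.0 in the biotin libraries and 195.2 and 213.0 in the controls, and the 7 genes of the ATF4 group to 123.2 and 130.3 against 101.6 and 126.5. The biotin sums were thus below both control sums for both chaperone groups, and for the ATF4 group 1 biotin sum lay between the control sums. Without short RNA genes and failed rows, all FPKM summed to 160622 and 147761 in the biotin libraries and 173201 and 199654 in the controls. The biotin sums were thus lower over the whole libraries too, so a lower sum alone is not particular to chaperones. Whether the sums of either chaperone group fell by more than those of the whole libraries was not tested. The cytosolic sums include HSPB1, at 81.06 and 50.18 FPKM in the biotin libraries and 35.67 and 54.04 FPKM in the controls.

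**Figure D1:**
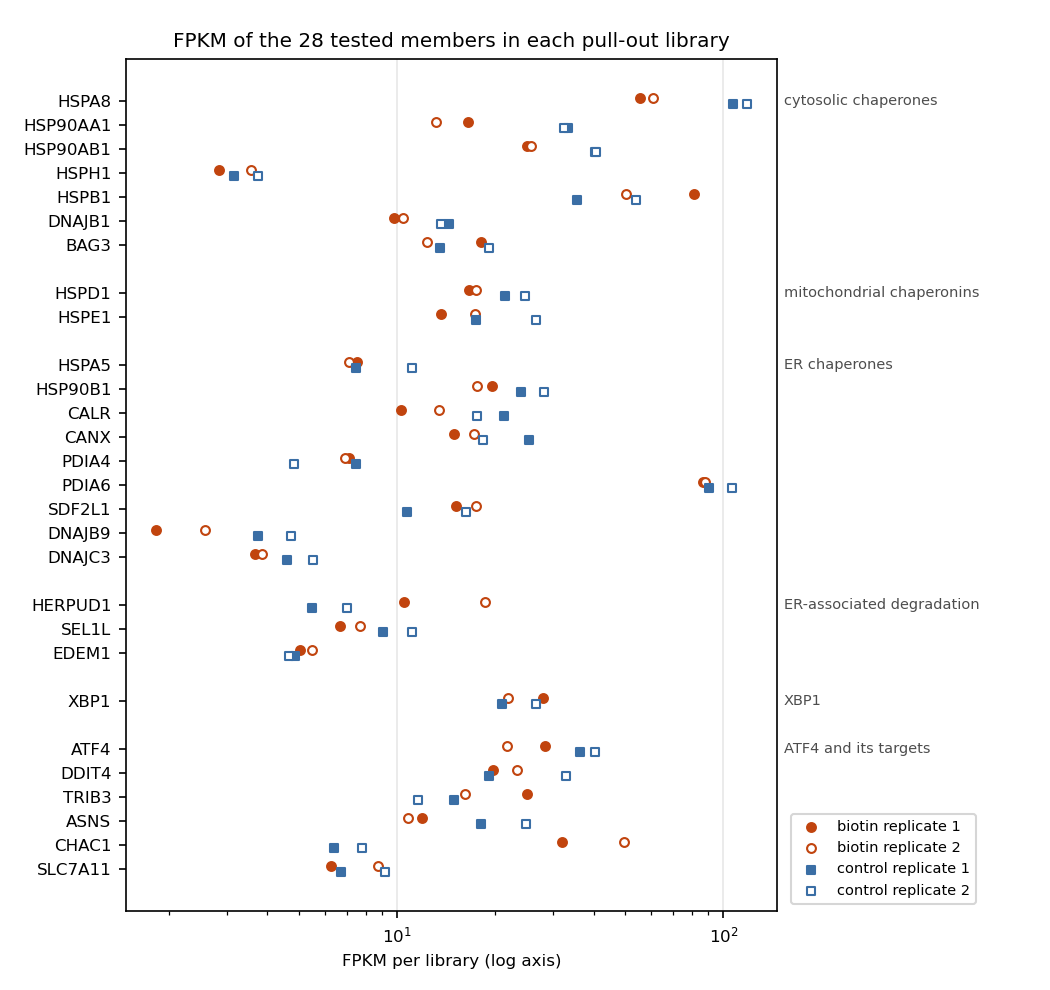
FPKM of the 28 tested members on a log axis, by role, with biotin libraries as circles and control libraries as squares (replicate 1 filled, replicate 2 open). HSPA8, HSP90AA1 and HSP90AB1 lie lower in both biotin libraries, and CHAC1 lies at 32.12 and 49.47 FPKM in the biotin libraries against 6.403 and 7.801 in the controls.

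HSPA8, the constitutive cytosolic chaperone of the Hsp70 family, was the most abundant member in the controls. It was at 55.36 and 60.74 FPKM in the biotin libraries and at 107.2 and 118.5 FPKM in the controls, from an estimated 2390 to 5200 reads. The groups did not overlap, and the log2 fold change was -0.95 ± 0.19 (SE; limma adjusted p = 0.0202). HSP90AA1, the stress-inducible form of cytosolic Hsp90, was at 16.45 and 13.19 FPKM in the biotin libraries and at 33.47 and 32.36 FPKM in the controls. It had the lowest log2 fold change of the members, -1.11 ± 0.19 (limma adjusted p = 0.0122). HSP90AB1, the constitutive form, was at 24.94 and 25.74 FPKM in the biotin libraries and at 40.45 and 40.66 FPKM in the controls. Replicates of a group were close to each other here, and the log2 fold change was -0.66 ± 0.17 (limma adjusted p = 0.0414).

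HSPA8 and HSP90AB1 lost their call whichever library was left out, and HSP90AA1 kept it only without biotin replicate 1. Without biotin replicate 1, biotin replicate 2, control replicate 1 or control replicate 2, the limma adjusted p was 0.0888, 0.071, 0.0885 and 0.109 for HSPA8. In the same order it was 0.0353, 0.0656, 0.0869 and 0.0848 for HSP90AA1 and 0.137, 0.127, 0.135 and 0.144 for HSP90AB1. Fold changes stayed negative in every such fit, between -1.02 and -0.88 for HSPA8, between -1.26 and -0.96 for HSP90AA1 and between -0.68 and -0.64 for HSP90AB1. GENCODE 29 lists 17 pseudogenes named for HSPA8, 4 for the HSP90AA and 5 for the HSP90AB family, and how reads shared with such copies were assigned is not given in the sources used here, so single values are uncertain.

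The other tested cytosolic members did not pass. DNAJB1, a J-domain protein that hands substrates to Hsp70, was at 9.771 and 10.43 FPKM in the biotin libraries and 14.42 and 13.64 FPKM in the controls (log2 fold change -0.44 ± 0.16, limma adjusted p = 0.0947). Its groups did not overlap. HSPB1, a small heat shock protein, was at 81.06 and 50.18 FPKM in the biotin libraries and 35.67 and 54.04 FPKM in the controls, so that the groups overlapped and biotin replicate 1 stood highest. BAG3, a co-chaperone that links Hsp70 to autophagy, was at 18.12 and 12.31 FPKM against 13.55 and 19.07 FPKM in the controls. HSPH1, a nucleotide exchange factor of Hsp70, was at 2.85 and 3.566 FPKM against 3.152 and 3.741 FPKM in the controls. For HSPB1, BAG3 and HSPH1 the log2 fold changes were 0.53 ± 0.31, -0.10 ± 0.26 and -0.08 ± 0.16, and those of BAG3 and HSPH1 turned positive with single libraries left out. That of HSPB1 ranged from 0.19 without biotin replicate 1 to 0.87 without biotin replicate 2, and was 0.24 without control replicate 1 and 0.82 without control replicate 2.

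HSPA1A and HSPA1B, the paired stress-inducible Hsp70 genes on chromosome 6, were not tested. HSPA1A was listed at 0 in all 4 libraries, where 3 reads would have given 0.0522 to 0.077 FPKM. HSPA1B was at 0.08946 and 0.2179 FPKM in the biotin libraries and 0.2514 and 0.1924 FPKM in the controls, an estimated 4 to 13 reads per library. Both genes have 1 row on chromosome 6 and 4 rows on alternate sequences of that chromosome in the deposited tables. Of 171 protein-coding genes with rows on such alternate sequences, 163 (95.3%) were below 1 FPKM in every library, against 47.0% of the other protein-coding genes. BAG6, PFDN6, RNF5 and ATF6B of the wider lists below have such rows too, and none of them exceeded 0.153 FPKM. The part of these duplicated rows in the low values of HSPA1A and HSPA1B was not tested, and no direction is drawn from either gene.

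HSPD1 and HSPE1, the mitochondrial chaperonin and its co-chaperonin, are neighbours on chromosome 2. HSPD1 was at 16.58 and 17.40 FPKM in the biotin libraries and at 21.42 and 24.60 FPKM in the controls. HSPE1 was at 13.64 and 17.34 FPKM in the biotin libraries and at 17.43 and 26.73 FPKM in the controls. Both genes lay lower in both biotin libraries, though for HSPE1 the nearest libraries of the groups nearly met. The log2 fold changes of -0.41 ± 0.17 and -0.46 ± 0.25 did not pass the test (limma adjusted p = 0.134 and 0.221). In hg38 the HSPD1 transcript with the highest FPKM spans chr2:197486584-197500274 and that of HSPE1 chr2:197499997-197503463, so their ends overlap, and reads there cannot be told apart without the strand. GENCODE 29 lists 17 pseudogenes for HSPD1 and 26 for HSPE1.

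Among ER chaperones, 1 of 9 was lower (11.1%, near the 9.34% of all tested genes) and none was higher. At an unadjusted p below 0.05 in limma, 3 were lower and 0 higher, against 1972 lower and 1942 higher of all 9940 tested genes. DNAJB9, a J-domain co-chaperone of BiP, was at 1.818 and 2.583 FPKM in the biotin libraries and at 3.749 and 4.742 FPKM in the controls. The groups did not overlap, and the log2 fold change was -0.72 ± 0.18 (limma adjusted p = 0.0385), from 81 to 214 estimated reads. Without biotin replicate 1, biotin replicate 2, control replicate 1 or control replicate 2 its adjusted p was 0.181, 0.0771, 0.102 and 0.17 (limma). CALR, the lectin chaperone calreticulin, was at 10.26 and 13.46 FPKM in the biotin libraries and 21.20 and 17.52 FPKM in the controls (-0.67 ± 0.20, limma adjusted p = 0.0611). HSP90B1, the ER form of Hsp90, was at 19.51 and 17.58 FPKM in the biotin libraries and 24.05 and 28.29 FPKM in the controls (-0.47 ± 0.18, limma adjusted p = 0.110). Neither gene had overlapping groups, and neither passed; CALR passed when genes with a mean under 5 FPKM were left out (adjusted p = 0.039), and HSP90B1 with upper-quartile or quantile scaling (adjusted p = 0.0472 and 0.0369).

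HSPA5, which encodes BiP, the main Hsp70 of the ER, was at 7.551 and 7.097 FPKM in the biotin libraries and at 7.470 and 11.12 FPKM in the controls, so that its groups overlapped (-0.28 ± 0.21). CANX, the membrane-bound lectin chaperone calnexin, was at 14.93 and 17.17 FPKM against 25.31 and 18.37 FPKM in the controls (-0.41 ± 0.21). DNAJC3, a J-domain co-chaperone that also inhibits PERK, was at 3.662 and 3.865 FPKM against 4.589 and 5.541 FPKM in the controls (-0.34 ± 0.15). These groups lay apart for CANX and DNAJC3 without a call. Of the disulfide isomerases, PDIA6 was the most abundant ER member at 86.54 and 87.84 FPKM in the biotin libraries and 90.63 and 106.4 FPKM in the controls (-0.17 ± 0.19). PDIA4 was at 7.128 and 6.929 FPKM against 7.486 and 4.844 FPKM in the controls (0.19 ± 0.21). SDF2L1, a component of the BiP chaperone complex, was at 15.18 and 17.45 FPKM against 10.70 and 16.23 FPKM in the controls (0.28 ± 0.23). PDIA4 and SDF2L1 were the ER chaperones with a positive value, and in both the groups overlapped.

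**Figure D2:**
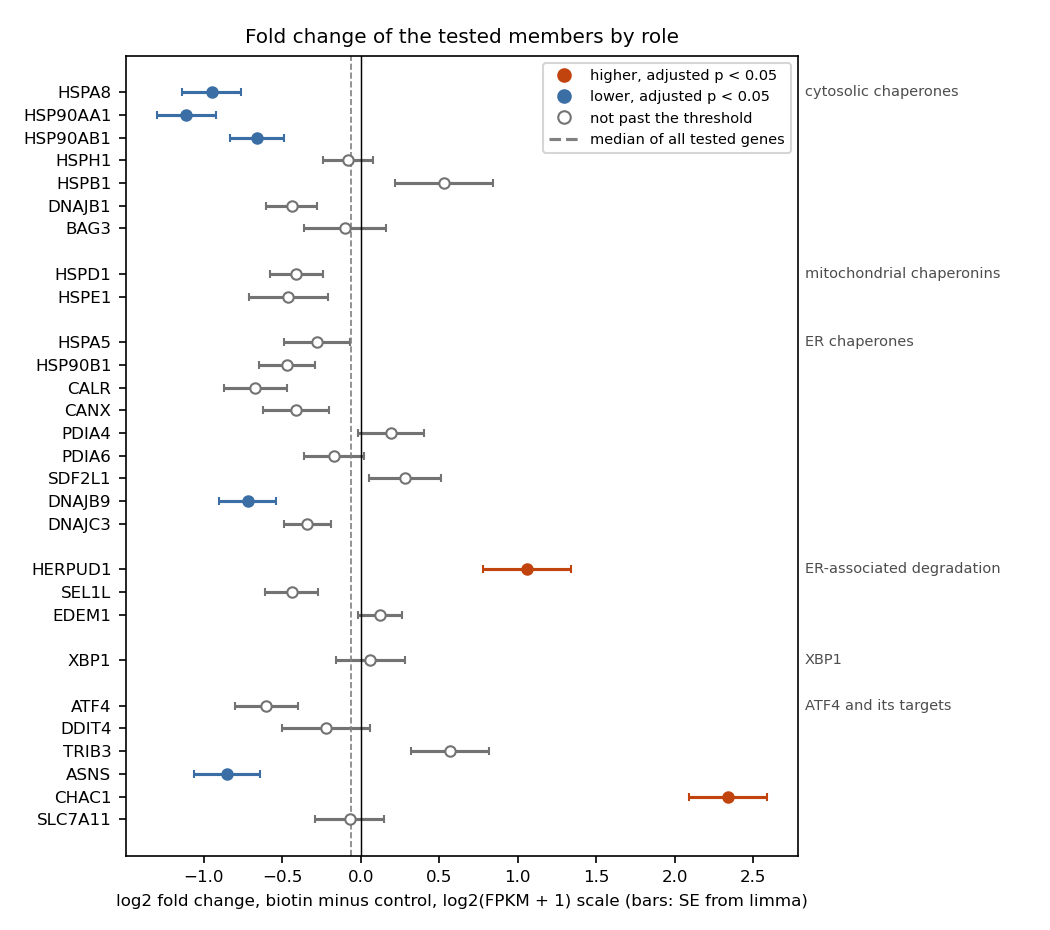
Log2 fold change of the tested members, biotin minus control, on the log2(FPKM + 1) scale with the SE from limma, by role; filled points passed an adjusted p of 0.05 and the dashed line is the median of all tested genes. CHAC1 and HERPUD1 are the filled points right of 0, and HSPA8, HSP90AA1, HSP90AB1, DNAJB9 and ASNS those left of it.

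Of the members that dispose of misfolded ER protein, HERPUD1 was higher in the biotin group. HERPUD1, a membrane protein that organises the ubiquitin ligase complex of ER-associated degradation, was at 10.50 and 18.59 FPKM in the biotin libraries and at 5.484 and 7.000 FPKM in the controls. The groups did not overlap, and biotin replicate 2 stood well above replicate 1. The log2 fold change was 1.06 ± 0.28 (limma adjusted p = 0.0419), and without biotin replicate 1, biotin replicate 2, control replicate 1 or control replicate 2 the adjusted p was 0.0306, 0.141, 0.198 and 0.137. In the same order the log2 fold change was 1.44, 0.68, 0.91 and 1.21. The gene lost its call under upper-quartile and quantile scaling (adjusted p = 0.0511 and 0.0518). SEL1L, the adaptor of that ligase, was at 6.705 and 7.671 FPKM in the biotin libraries and 9.068 and 11.14 FPKM in the controls (-0.44 ± 0.17, limma adjusted p = 0.119). EDEM1, a lectin that leads misfolded glycoproteins to degradation, was at 5.021 and 5.479 FPKM against 4.880 and 4.653 FPKM in the controls (0.12 ± 0.14). SEL1L and EDEM1 did not pass, although neither had overlapping groups.

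The transcripts listed for HERPUD1 also differed between the groups. The biotin libraries listed NM_014685 at 10.50 and 10.04 FPKM, and biotin replicate 2 also listed NM_001272103 at 8.549 FPKM, while both transcripts were listed at 0 in the controls. The controls listed NM_001010989 at 5.484 and 7.000 FPKM, and this transcript was listed at 0 in both biotin libraries. NM_014685 and NM_001010989 differ by 3 nt in deposited length, and reads of 50 bases rarely tell such forms apart, so the gene sum is the firmer value.

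XBP1, the transcription factor whose mRNA is spliced by IRE1, was at 28.05 and 21.85 FPKM in the biotin libraries and at 20.97 and 26.63 FPKM in the controls (log2 fold change 0.06 ± 0.22, limma adjusted p = 0.849). The groups overlapped for the gene sum. By transcript, NM_001079539, the form shorter by 26 nt that encodes the active factor, was at 28.05 and 15.33 FPKM in the biotin libraries and 10.53 and 7.023 FPKM in the controls. NM_005080, the unspliced form, was listed at 0 in biotin replicate 1 and was at 6.519 FPKM in biotin replicate 2, and was at 10.43 and 19.61 FPKM in the controls. The shorter form thus took 100.0% and 70.2% of XBP1 FPKM in the biotin libraries and 50.2% and 26.4% in the controls. The shares did not overlap, the 2 libraries of each group lay far apart, and with 2 against 2 no exact test can pass. The division rests on the authors' Cufflinks estimate over a stretch of 26 nt, with 608 to 930 estimated reads for the gene in a library.

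**Figure D3:**
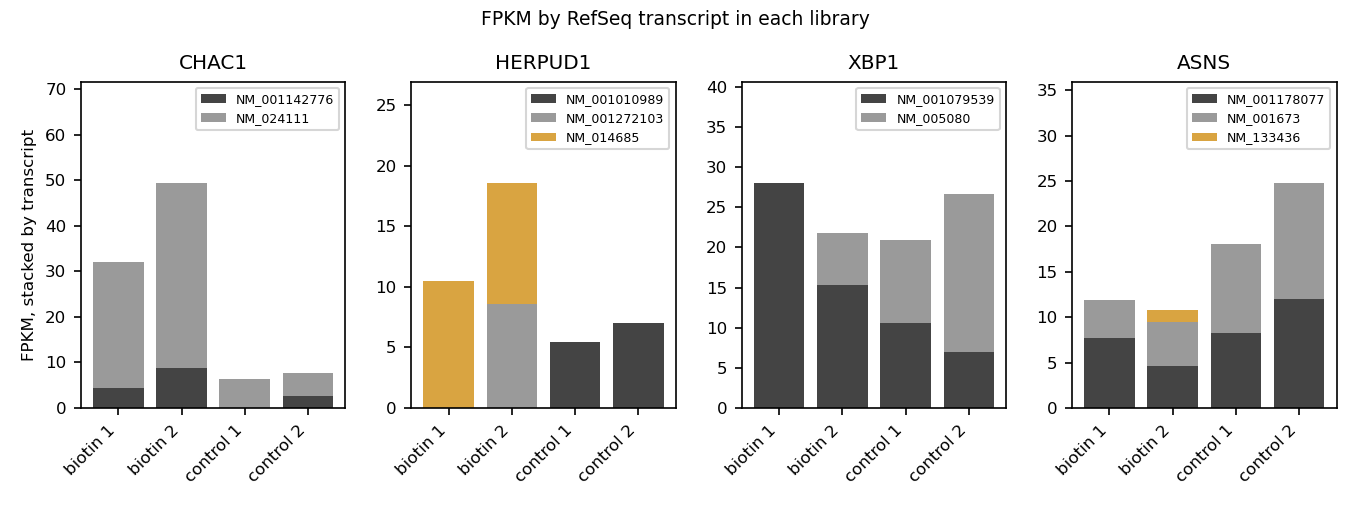
FPKM of CHAC1, HERPUD1, XBP1 and ASNS in each library, with bars from 0 stacked by RefSeq transcript. CHAC1 is higher in both biotin libraries through NM_024111, while HERPUD1 is listed under other transcripts in the biotin libraries than in the controls and XBP1 has a larger share of NM_001079539 in the biotin libraries.

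ATF4 and its targets did not move as a block. CHAC1, an ATF4 target that breaks down glutathione, was at 32.12 and 49.47 FPKM in the biotin libraries and at 6.403 and 7.801 FPKM in the controls, from 870 and 1798 estimated reads against 160 and 210. This was the largest change among the members, with a log2 fold change of 2.34 ± 0.25 (limma adjusted p = 0.00271). NM_024111 carried most of it, at 27.66 and 40.59 FPKM in the biotin libraries against 6.403 and 5.112 FPKM in the controls. CHAC1 passed without biotin replicate 1, biotin replicate 2 or control replicate 2, and it missed the threshold without control replicate 1 (limma adjusted p = 0.0626, log2 fold change 2.04 to 2.64 over these fits). ASNS, which makes asparagine and is a classical ATF4 target, was at 11.88 and 10.78 FPKM in the biotin libraries and at 18.08 and 24.78 FPKM in the controls. Its groups did not overlap, and the log2 fold change was -0.85 ± 0.21 (limma adjusted p = 0.0333). Without biotin replicate 1, biotin replicate 2, control replicate 1 or control replicate 2 the adjusted p of ASNS was 0.102, 0.141, 0.0779 and 0.14.

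ATF4 itself was at 28.34 and 21.77 FPKM in the biotin libraries and at 36.24 and 40.28 FPKM in the controls. The groups did not overlap, and the log2 fold change of -0.60 ± 0.20 missed the threshold (limma adjusted p = 0.0807), while upper-quartile and quantile scaling gave adjusted p = 0.0371 and 0.0304. TRIB3, a pseudokinase that dampens ATF4 activity, was at 24.95 and 16.17 FPKM in the biotin libraries and 14.97 and 11.59 FPKM in the controls (0.57 ± 0.25, limma adjusted p = 0.148). DDIT4, an inhibitor of mTORC1 signalling, was at 19.70 and 23.34 FPKM against 19.18 and 32.88 FPKM in the controls (-0.22 ± 0.28). SLC7A11, the cystine carrier, was at 6.250 and 8.754 FPKM against 6.706 and 9.165 FPKM in the controls (-0.07 ± 0.22). For SLC7A11 and DDIT4 the groups overlapped, and replicate 2 was higher than replicate 1 in both groups. Over the 28 tested members replicate 2 was the higher in both groups for 14 and replicate 1 for 3, against 3117 and 2032 of the 9940 tested genes. DDIT3, the pro-apoptotic factor CHOP, had 6 transcripts that were all listed at 0 in every library, where 3 reads on 1068 nt would have given 0.119 to 0.175 FPKM; why it was listed at 0 was not tested.

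Further genes of the same pathways were read from lists of 151 genes in the tables, of which 134 were tested. In the biotin group 15 of them were higher (11.2%, against 13.1% of all tested genes) and 16 lower (11.9%, against 9.34%), so that in all the lists stood near the background. Among 27 tested genes of the ATF4 pathway outside the members, 8 were higher (29.6%, against 13.1% of all tested genes) and 0 were lower in limma (4 lower at an unadjusted p below 0.05), while the median was -0.05. SLC7A5, the large neutral amino acid carrier, was at 313.1 and 330.6 FPKM in the biotin libraries and at 53.55 and 59.73 FPKM in the controls (2.49 ± 0.19, limma adjusted p = 0.00101). PYCR1, an enzyme of proline synthesis, was at 100.2 and 88.68 FPKM in the biotin libraries and 30.06 and 40.66 FPKM in the controls (1.41 ± 0.22, limma adjusted p = 0.00974). ATF5, a transcription factor related to ATF4, was at 5.177 and 4.769 FPKM in the biotin libraries and listed at 0 in both controls, so no fold is given; why it was listed at 0 was not tested, and its call rests on those zeros. SLC7A5 and ATF5 passed whichever library was left out, and PYCR1 in 1 of these 4 fits. The other 5 were SESN2, GADD45A, SLC1A5, PSPH and CTH, named after their values were seen, with log2 fold changes of 0.90, 0.75, 0.69, 0.54 and 0.52.

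Of 11 tested sensors and regulators of the unfolded protein response, 2 were higher (18.2%, against 13.1% of all tested genes) and 0 lower (limma; 3 higher and 2 lower at an unadjusted p below 0.05), with a median of 0.28. EIF2AK3, which encodes PERK, was at 3.380 and 4.372 FPKM in the biotin libraries and at 1.034 and 1.125 FPKM in the controls (1.22 ± 0.16, limma adjusted p = 0.00521). ATF6 was at 4.152 and 4.968 FPKM in the biotin libraries and 2.485 and 2.707 FPKM in the controls (0.63 ± 0.15, limma adjusted p = 0.0321). EIF2AK3 kept its call without either biotin library and lost it without control replicate 1 or 2 (adjusted p = 0.0686 and 0.0578), and ATF6 lost its call in all 4 such fits (0.0861 to 0.159). Of 23 further ER folding genes, 0 passed in limma, against 22.5% of all tested genes, with a median of -0.07. At an unadjusted p below 0.05 in limma, 2 were higher and 4 lower. Of 19 further genes of ER-associated degradation, 3 were higher and 6 lower at an unadjusted p below 0.05 in limma, with a median of -0.18. After adjustment 1 was higher (5.26%, against 13.1% of all tested genes) and 4 were lower (21.1%, against 9.34%). The largest decreases among the 4 were those of UBXN4 (-0.78 ± 0.14), FAF2 (-0.68 ± 0.16) and UBE2J1 (-0.66 ± 0.16), and these genes lost their calls whichever library was left out.

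**Figure D4:**
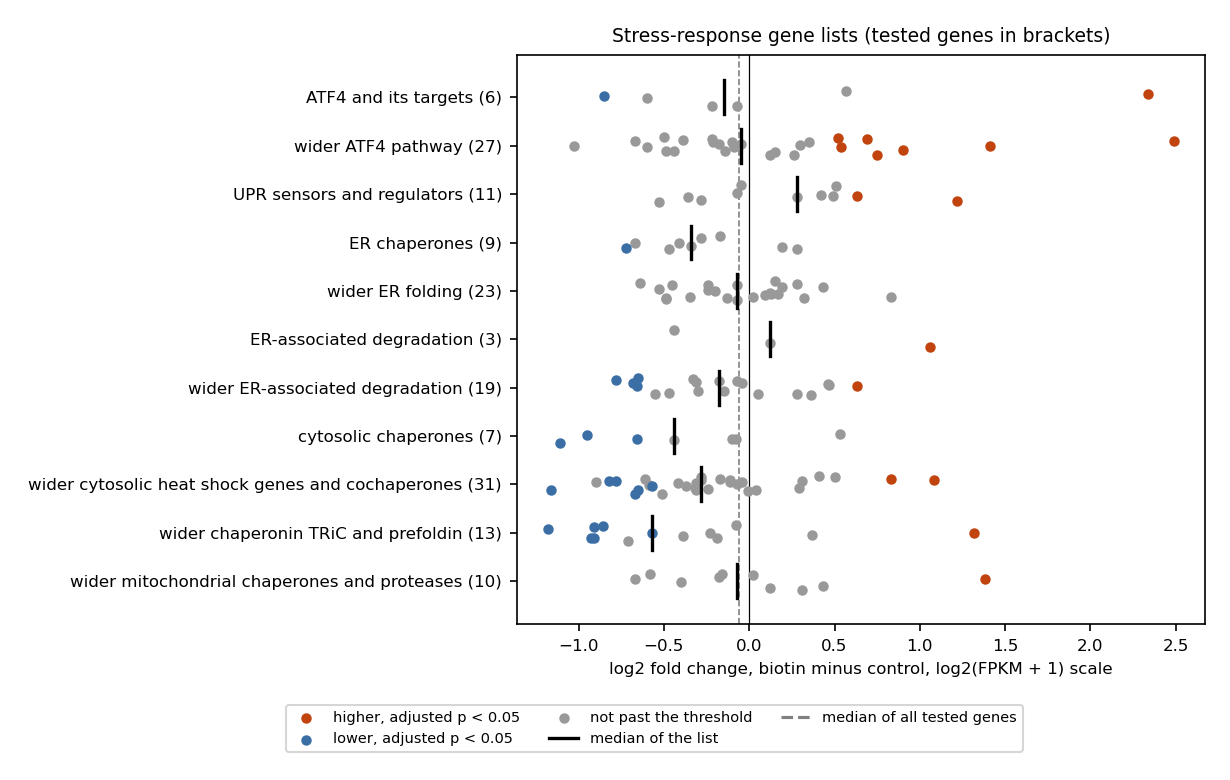
Log2 fold change of the tested genes of each list, biotin minus control, on the log2(FPKM + 1) scale, with coloured points past an adjusted p of 0.05, black bars at list medians and the dashed line at the median of all tested genes; ATF5, listed at 0 in both controls, is not drawn. Calls of the wider ATF4 pathway lie right of 0, and 6 of 7 calls of the TRiC and prefoldin list lie left of it.

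In the wider list of heat shock genes and co-chaperones, not all of them shown to be cytosolic, more genes were lower than higher. Of 31 tested heat shock genes and co-chaperones, 2 were higher (6.45%, against 13.1% of all tested genes) and 6 lower (19.4%, against 9.34%), with a median of -0.28. HSF1, the heat shock factor, was at 27.08 and 20.67 FPKM in the biotin libraries and at 12.41 and 13.34 FPKM in the controls (0.83 ± 0.20, limma adjusted p = 0.0311). BAG4, a nucleotide exchange factor, was at 11.10 and 13.50 FPKM against 4.506 and 6.129 FPKM in the controls (1.08 ± 0.20). BAG2, a co-chaperone that inhibits the ligase CHIP, was at 8.940 and 8.151 FPKM in the biotin libraries and 19.90 and 20.77 FPKM in the controls (-1.16 ± 0.16, limma adjusted p = 0.00654). HSBP1, a binding partner of HSF1, and HSPA13 fell by 0.82 ± 0.20 and 0.78 ± 0.18 on the log2 scale. With a library left out, BAG2 kept its call in 2 of 4 fits and the other 4 genes in 0.

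The chaperonin TRiC and prefoldin, which fold actin and tubulin, had 6 of 13 tested genes lower (46.2%, against 9.34% of all tested genes) and 1 higher, with a median of -0.57. PFDN4 was at 5.500 and 4.587 FPKM in the biotin libraries and at 13.53 and 11.78 FPKM in the controls (-1.18 ± 0.17, limma adjusted p = 0.00717). PFDN5 fell by 0.93 ± 0.20 and CCT3 by 0.91 ± 0.21 on the log2 scale. CCT8, a subunit of the same TRiC ring, was at 166.4 and 114.2 FPKM in the biotin libraries and 47.82 and 62.62 FPKM in the controls (1.32 ± 0.26, limma adjusted p = 0.0195). Subunits of a single complex were therefore called in opposite directions. PFDN4 and CCT8 each passed in 1 of 4 fits with a library left out, and PFDN5 and CCT3 in 0. Of 10 tested mitochondrial chaperones and proteases outside the members, 1 was called (10.0%, against 22.5% of all tested genes). The call was TRAP1, the mitochondrial Hsp90, at 56.49 and 44.19 FPKM in the biotin libraries against 16.36 and 21.06 FPKM in the controls (1.38 ± 0.22, limma adjusted p = 0.0102). It passed in 1 of 4 fits with a library left out.

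Promoters of the members were read for the elements by which these programmes are known. A match is a description and not a site of binding. The members were chosen as genes of these programmes, so a larger share with an element than among all promoters is no finding of these data. In windows from 250 bases before to 50 after the start (RefSeq, GRCh38.p14), the ER stress element (CCAAT, 9 bases of any kind, then CCACG) was present on either strand in 5 of 30 member promoters and in 0.0806% of 27305 promoters. Of these 5 genes, HSPA5, HSP90B1, CALR and CANX had negative log2 fold changes without a call and XBP1 one of 0.06. They are shown on the gene's strand with the element in capitals.
CALR: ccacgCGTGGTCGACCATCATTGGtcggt
CANX: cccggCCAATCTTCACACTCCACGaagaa
HSP90B1: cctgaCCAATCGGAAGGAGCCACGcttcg
HSPA5: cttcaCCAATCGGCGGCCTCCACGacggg
XBP1: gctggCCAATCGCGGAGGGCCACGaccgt
HSP90B1 held a second copy at chr12:103930316-103930344. The ATF4 element TGATGNAA was present on either strand in 3 of 30 member promoters, against 3.67% of all promoters. Whether it goes with the calls was not tested. These were the members CHAC1 and HERPUD1, both higher in the biotin group, and ASNS, which was lower.
CHAC1: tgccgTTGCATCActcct
HERPUD1: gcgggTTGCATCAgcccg
ASNS: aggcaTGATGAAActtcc
The heat shock element was searched only as GAA, TTC and GAA in this order with 2 bases of any kind between them, on either strand. That form was present in HSPA8 alone among the members and in 0.487% of all promoters. Other forms of the element were not searched, so its absence is not shown for the other members. HSPA8 held 2 copies, of which the second, on the opposite strand, lies at chr11:123062174-123062196.
HSPA8: agcttGAAAGTTCCAGAAcgctg
The windows lie at chr19:12938379-12938407 for CALR, chr5:179698773-179698801 for CANX, chr12:103930211-103930239 for HSP90B1, chr9:125241386-125241414 for HSPA5, chr22:28800598-28800626 for XBP1, chr15:40953257-40953274 for CHAC1, chr16:56931961-56931978 for HERPUD1, chr7:97872464-97872481 for ASNS and chr11:123062349-123062371 for HSPA8. The genes of HSPA5, XBP1, ASNS and HSPA8 are on the minus strand and the others on the plus strand.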

How the data were processed

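Libraries of total RNA from streptavidin pull-outs were made with a stranded kit and sequenced as single reads of 50 bases, per the labels' protocols. The submitters' processing notes name the tools TopHat2 2.0.9, Cufflinks 2.1.1, Cuffdiff, cutadapt and FastQC 0.10.1 and the build hg38. How these were set, and with which annotation and strand option, is not given in the sources used here. The authors deposited FPKM for 53209 transcript rows per library. The coverage that they deposited served only to estimate depth and reads per gene, which limit precision through counting error only.

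RefSeq accessions were given symbols (98.7% of 46699) and FPKM was summed per gene. Genes with a failed or excess-data status (22) and short structured RNA genes were left out. Genes that reached 1 FPKM in 2 or more libraries were compared on log2(FPKM + 1), which understates the change of low genes, with limma 3.58.1 in R 4.3.3 (eBayes with a variance trend, two-sided, Benjamini-Hochberg adjusted over 9940 genes). The fit was also run on simulated data in which the spreads of genes were shuffled over their means. That run does not check the calls made here. Members, lists, tests and motifs were chosen with earlier results of these data known. The rule for named genes took all members and, of each wider list, up to 3 calls per direction with the largest change. The replicates are biological per the series design. Alternatives were other pseudocounts, filters, scalings and gene values, no variance trend, short RNA genes kept, a replicate block and each library left out, where the fit assumes that a lone library varies like the others. Some genes and sequences are not reported here.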

Additional observations from a re-analysis of the deposited data

How the results depend on the processing

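Among the members, 2 higher and 5 lower became 1 and 2 without a filter on low values or with short RNA genes kept. They became 1 and 7 with upper-quartile or quantile scaling, and 2 and 0 with the highest transcript in place of the sum. In that last setting the log2 fold change of HERPUD1 was 3.49, against 1.06 with the sum. Its highest transcript, NM_014685, was listed at 0 in both controls, so its call there rests on those zeros. Over all tested genes the counts of 1307 and 928 became 653 and 231 without a filter and 425 and 157 with the highest transcript. In the wider lists 15 higher and 16 lower became 5 and 3 without a filter and 3 and 3 with the highest transcript; upper-quartile and quantile scaling gave 27 lower, and short RNA genes kept gave 9. The cause was not tested. The numbers of the replicates did not pair the samples (correlation of deviations between same-numbered libraries 0.0184), and the fit with a replicate block gave 1084 higher and 542 lower genes, 2 and 3 members, with ASNS (adjusted p = 0.062) and HSP90AB1 (0.0777) no longer called in limma, and 9 and 8 genes of the wider lists.

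With a library left out, members called ranged from 0 to 2 higher and 0 to 1 lower, all tested genes from 193 to 680 higher and 32 to 220 lower, and the wider lists from 2 to 8 higher and 0 to 2 lower. Medians of log2 fold change then ranged from -0.48 to -0.39 for cytosolic chaperones, -0.46 to -0.23 for ER chaperones and -0.43 to 0.14 for ATF4 and its targets. The median of cytosolic chaperones was -0.47 and -0.33 with pseudocounts of 0.1 and 5, -0.27 without a filter, -0.55 with a mean FPKM of at least 5, and -0.52 with upper-quartile, -0.51 with quantile and -0.37 with median-of-ratios scaling. That of ER chaperones was -0.41 and -0.20 with the pseudocounts, -0.28 with a mean FPKM of at least 5, -0.41 and -0.28 with upper-quartile and median-of-ratios scaling, and -0.28 with the highest transcript. Values that changed sign were all without a call. XBP1 was at -0.02 with upper-quartile and -0.05 with quantile scaling. With a library left out, the log2 fold change ranged from -0.11 to 0.24 for XBP1 (negative without either replicate 1), -0.20 to 0.04 for HSPH1 (positive without biotin replicate 1 or control replicate 2), -0.36 to 0.16 for BAG3 (positive without either replicate 2), -0.08 to 0.46 for PDIA4 (negative without control replicate 2), -0.59 to 0.15 for DDIT4 (positive without control replicate 2) and -0.29 to 0.14 for SLC7A11 (positive without biotin replicate 1 or control replicate 2). Genes under the filter gave no value with a mean FPKM of at least 5 (HSPH1, DNAJB9, DNAJC3, ATF5, ATF6, EIF2AK3 and UBXN4), nor did ATF5 with the highest transcript.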
